A study of Mus musculus with 4 samples.

Results

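The genes described here encode proteins that the liver makes: the plasma carriers Alb, Ttr and Hpx, the phospholipid-binding plasma protein Apoh, the antiproteases Serpinc1, Serpina1b, Serpina1d and Serpina1e, the apolipoprotein Apoa5 and the liver fatty acid binding protein Fabp1. They were followed in lung RNA by taking every probe whose only gene symbol in the platform annotation was one of these 10. This gave 12 probes of 20205, because Ttr and Apoa5 had 2 probes each, and 11 of the 12 had a value on all 4 arrays. By gene these are 10 of 9802. The genes were chosen by their measured log2 ratios on these same 4 arrays, high in particle-free air and lower in UCP air, so their values are given as a description and carry no test.

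The study compared BALB/cJ mice, which are inbred, by lung RNA on 4 dual-colour arrays. Lung of mice that had been sensitized to and then challenged with ovalbumin (OVA), a protein of egg white that serves as a model allergen, was set against a pool of lung RNA from 6 control animals, which were non-sensitized per the design text. Both the challenged mice and their controls breathed particle-free air on 2 arrays and air containing UCP, an abbreviation the labels do not spell out, on the other 2. In each air the challenged lung carried Cy5 on array 1 and Cy3 on array 2. Ages and the timing of exposure were not given in the sources used here. Whether both arrays of an air came from separate animals, or from 1 RNA labelled both ways, is not in the labels. The spread between them, and p-values built on it, may therefore be technical only. Sensitization and challenge were always combined and cannot be told apart.

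Hepatocytes, the main cell of the liver, release most of the protein in blood plasma. Albumin and transthyretin carry hormones, fatty acids and other ligands, hemopexin binds free heme, and the serpins block proteases of clotting and inflammation. Transcription of these genes in liver depends on a small set of factors, among them HNF1, HNF4 and the C/EBP family. Lung is not known as a main site of albumin synthesis.

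The stretches upstream of the start sites are shown because the members had like ratios on these arrays and because the 3 Serpina1 genes are near copies. RefSeq's table for GRCm38.p6 held promoters for 9 of the 10 genes, without Ttr. The first is the 250 bases before the Alb start at chr5:90460620-90460869, plus strand, with GTTAAT, the half-site of the HNF1 motif, and TTTGGCAA, a match to the C/EBP motif TTNNGCAA, in capitals.
Alb: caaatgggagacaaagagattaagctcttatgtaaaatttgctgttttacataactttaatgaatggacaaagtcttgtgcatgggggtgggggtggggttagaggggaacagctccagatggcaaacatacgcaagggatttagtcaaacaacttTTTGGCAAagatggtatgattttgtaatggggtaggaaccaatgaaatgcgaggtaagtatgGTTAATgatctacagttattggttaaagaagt
The next are the matching 110 bases of the 3 antitrypsin genes on chromosome 12, all on the minus strand, at chr12:103738200-103738309, chr12:103773634-103773743 and chr12:103956960-103957069, with the same GTTAAT in capitals.
Serpina1b: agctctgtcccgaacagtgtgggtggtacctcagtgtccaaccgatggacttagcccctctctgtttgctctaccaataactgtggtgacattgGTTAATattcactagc
Serpina1d: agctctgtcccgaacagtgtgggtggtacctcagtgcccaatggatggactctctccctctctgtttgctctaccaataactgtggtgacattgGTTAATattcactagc
Serpina1e: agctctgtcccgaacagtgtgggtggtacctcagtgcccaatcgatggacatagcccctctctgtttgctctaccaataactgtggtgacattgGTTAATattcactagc
The last is the 120 bases before the Fabp1 start at chr6:71199759-71199878, plus strand, with GTTAAT in capitals.
Fabp1: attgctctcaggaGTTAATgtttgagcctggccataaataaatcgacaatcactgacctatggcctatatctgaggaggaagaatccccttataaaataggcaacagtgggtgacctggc
Over the 110 bases shown Serpina1b and Serpina1e differed at 3 positions, Serpina1d and Serpina1e at 6, and Serpina1b and Serpina1d at 7. Probe sequences were not used here, so it cannot be said whether a probe named for one antitrypsin gene also binds another; the 3 probes are best read as 1 measurement of the family.

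Both strands of the 250 bases upstream were searched for 5 motifs, using 1 promoter per gene. GTTAAT stood in 5 of 9 member promoters (Alb, Fabp1 and the 3 Serpina1 genes), against 6.52% of the 27025 genes in the table and 3.99% of the 7411 measured genes that had a promoter there. TTNNGCAA stood in 6 of 9 (the same 5 and Hpx), against 9.55% and 7.87%. TATAAA, the TATA box, stood in 2 of 9 (Fabp1 and Apoa5), against 3504 of the 27025 genes and 7.12% of the measured ones. The full HNF1 inverted repeat, which contains GTTAAT so that both searches overlap, stood in 0 of 9 and in 0.0074% of all. CAAAGTCCA, a form of the HNF4 site, stood in 0 of 9 and in 0.381% of all. The 3 Serpina1 promoters share their sequence and count as 1 case. Among 30 other liver-made plasma protein genes with a promoter in the table, GTTAAT stood in 7 and TTNNGCAA in 4. These are matches of letters and show no binding.

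The unit throughout is the log2 ratio, challenged lung divided by the pooled controls of the same air. The values themselves show that the 4 arrays run in the same direction. Their common sign is likely but not stated by a label: it takes the deposited ratio to be Cy5 over Cy3 on array 1. A ratio does not show how abundant a transcript is, nor which of the 2 RNAs moved. In whole-lung RNA, more cells of a type and more RNA per cell cannot be told apart.

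In particle-free air each of the 10 genes had a probe that on average read higher in challenged lung than in the control pool, from 4.55-fold for Serpinc1 to 24.4-fold for Alb. In UCP air the same probes lay between -0.61 (Fabp1) and 1.32 (Ttr) on the log2 scale. For none of these 10 probes did the arrays of the airs overlap. The second probes of Ttr and Apoa5 did not share this pattern: their means in particle-free air were -0.15 and -0.68.

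Alb, the most abundant plasma protein, lay at 4.75 and 4.46 in particle-free air and at -0.53 and 0.81 in UCP air. In particle-free air this is a mean of 4.61 ± 0.20 (SD, n = 2), or 24.4-fold above the control pool, and the 18th highest of the 18160 probes measured on all arrays. In UCP air the mean was 0.14 ± 0.95 (SD, n = 2), with the arrays on opposite sides of 0. The airs did not overlap, and the ratio in particle-free air was 22.2 times that in UCP air, the widest gap among the 10 genes.

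Ttr, transthyretin, carries thyroid hormone and the retinol binding protein. Its probe 1 lay at 3.52 and 4.26 in particle-free air and at 1.21 and 1.42 in UCP air. This was the only member probe at least 1.5-fold higher on both UCP arrays. Its probe 2 lay near 0 on every array, at -0.08 and -0.23 in particle-free air and at -0.20 and -0.54 in UCP air. The probes carry the same gene identifier, yet their means in particle-free air were 3.89 ± 0.53 and -0.15 ± 0.11 (SD, n = 2 each). Which of them reads Ttr is not known.

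Hpx, the heme carrier hemopexin, lay at 3.83 and 3.50 in particle-free air. In UCP air it lay at 1.20 and 0.48, above 0 on both arrays. Apoh, which binds anionic phospholipids, lay at 2.94 and 2.99 in particle-free air and at 0.53 and 0.20 in UCP air. The gap between the airs was 2.82 for Hpx and 2.60 for Apoh, and the SDs between the arrays of an air were at most 0.51 and 0.23. Because the genes were chosen for such a gap, its size beside these SDs is no test.

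Among the antiproteases, Serpinc1 (antithrombin, the main inhibitor of thrombin) had the lowest ratio in particle-free air apart from the second probes of Ttr and Apoa5. It lay at 2.17 and 2.20 there and at 0.31 and 0.98 in UCP air. Serpina1b, an inhibitor of neutrophil elastase, lay at 3.56 and 2.86 in particle-free air and at 0.44 and 0.52 in UCP air. Serpina1d lay at 3.51 and 3.14, then at 0.53 and 0.62. Serpina1e lay at 3.51 and 3.45, then at 0.59 and 0.17. The means of the 3 antitrypsin probes, 3.21, 3.32 and 3.48 in particle-free air, differed by less than the spread between the arrays of Serpina1b (SD 0.49).

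Apoa5, which promotes the clearance of plasma triglycerides, lay on its probe 1 at 3.61 and 2.15 in particle-free air, the widest gap between the arrays of that air among the members (mean 2.88 ± 1.03, SD, n = 2). In UCP air it lay at 0.14 and 0.51. Its probe 2 went the other way, with -0.39 and -0.97 in particle-free air, 3.74 on array 2 of UCP air and no value on array 1. Because of that missing value probe 2 entered no count over all 4 arrays.

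Fabp1 differs from the others in kind, since it stays inside the cell, where it carries fatty acids in liver and in intestinal epithelium. It lay at 2.48 and 2.28 in particle-free air and at -0.51 and -0.70 in UCP air. It was the only gene of the 10 above 0 on both arrays of one air and below 0 on both of the other. The means were 2.38 ± 0.14 and -0.61 ± 0.13 (SD, n = 2 each), so the airs were 2.99 apart (7.94-fold) with close arrays in each.

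**Figure D1:**
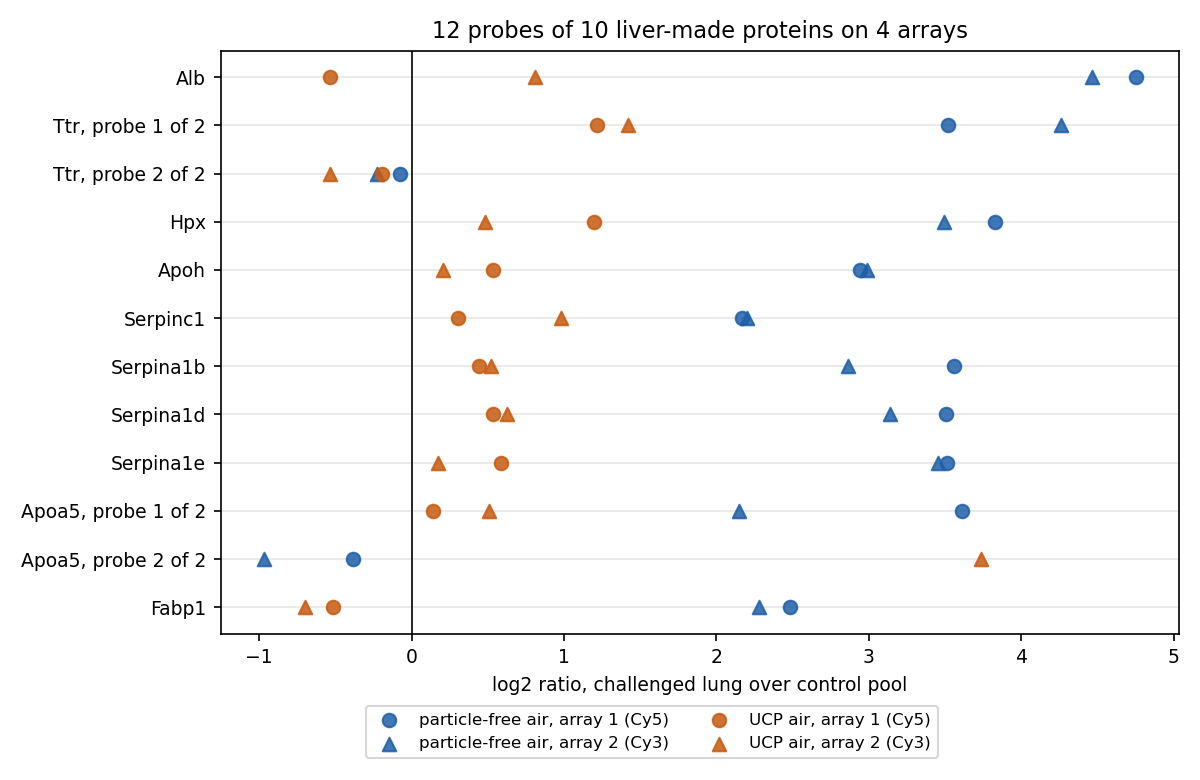
Log2 ratio of challenged lung over control pool (horizontal axis) for the 12 probes of the 10 genes (rows), 1 point per array; blue is particle-free air, orange UCP air, circles are array 1 and triangles array 2. For 10 probes both blue points lie right of both orange points, while Ttr probe 2 sits near 0 and Apoa5 probe 2, which has 3 values, goes the other way.

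Over the 11 member probes with all values, the median was 3.51 and 2.99 in particle-free air, array by array, and 0.44 and 0.51 in UCP air. All 18160 probes had medians of -0.004 and -0.079, then -0.02 and 0.02. In particle-free air 10 of 11 member probes were at least 1.5-fold higher on both arrays, where 3.68% of all probes were, and 10 of 11 lay at least 1.5-fold above UCP air on every pairing of arrays, where 2.35% of all probes did. The count the other way was 0 of 11, beside 2.37%, and 0 of 11 were at least 1.5-fold lower in either air, beside 4.62% and 4.55%. These counts restate how the genes were chosen. Their order by mean ratio in particle-free air ran from rank 18 (Alb) to rank 95 (Serpinc1) for those 10 probes, with Ttr probe 2 at rank 10945. In UCP air 8 of 11 lay above 0 on both arrays, beside 29.4% of all probes, and 1 of 11 (Ttr probe 1) at least 1.5-fold, beside 3.23%. The means in UCP air ran from -0.61 (Fabp1) to 1.32 (Ttr probe 1). All member counts and medians, here and below, hold the 3 Serpina1 probes separately, though they are best read as 1 measurement.

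In particle-free air the neighbours in the order from Alb down (Alb, Ttr probe 1, Hpx, Serpina1e, Serpina1d, Serpina1b, Apoh, Apoa5, Fabp1, Serpinc1) mostly lay within the spread of their arrays. The exceptions, where the arrays of neighbours did not overlap, were Alb above Ttr probe 1 (lowest 4.46 against highest 4.26) and Fabp1 above Serpinc1 (2.28 against 2.20). In UCP air the arrays of neighbours overlapped apart from 2 steps: Ttr probe 1 lay just above Hpx (1.21 against 1.20), and Serpina1d just above Serpina1b (0.53 against 0.52).

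A limma fit to all 18160 probes called 0 of them in particle-free air, 0 in UCP air and 0 for the difference between the airs (0.0% each way) at an adjusted p under 0.05. At an unadjusted p under 0.05 it held 826 higher (4.55%) and 1069 lower (5.89%) probes in particle-free air, then 672 (3.7%) and 863 (4.75%) with UCP, and 355 (1.95%) and 367 (2.02%) for UCP minus particle-free air. The arrays were weakly correlated over all probes: Pearson's r was 0.0688 between the arrays of particle-free air and 0.161 between those of UCP air. Between arrays of different airs it ran from 0.0716 to 0.178, so the particle-free pair was the least correlated of all. These are correlations across probes, which are not independent replicates. Capped probes were left in these r values. Of all probes with a value, 25 and 44 were capped in particle-free air (arrays 1 and 2), and 20 and 58 in UCP air. They stood at 16.56, -16.05, 17.16 and -16.33, where the SDs over probes were 1.01, 1.15, 0.86 and 1.20. The share of capped probes in r was not tested, so neither its size nor its order shows how alike the other probes were. None of the member values lay on the array's capped ratio.

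**Figure D2:**
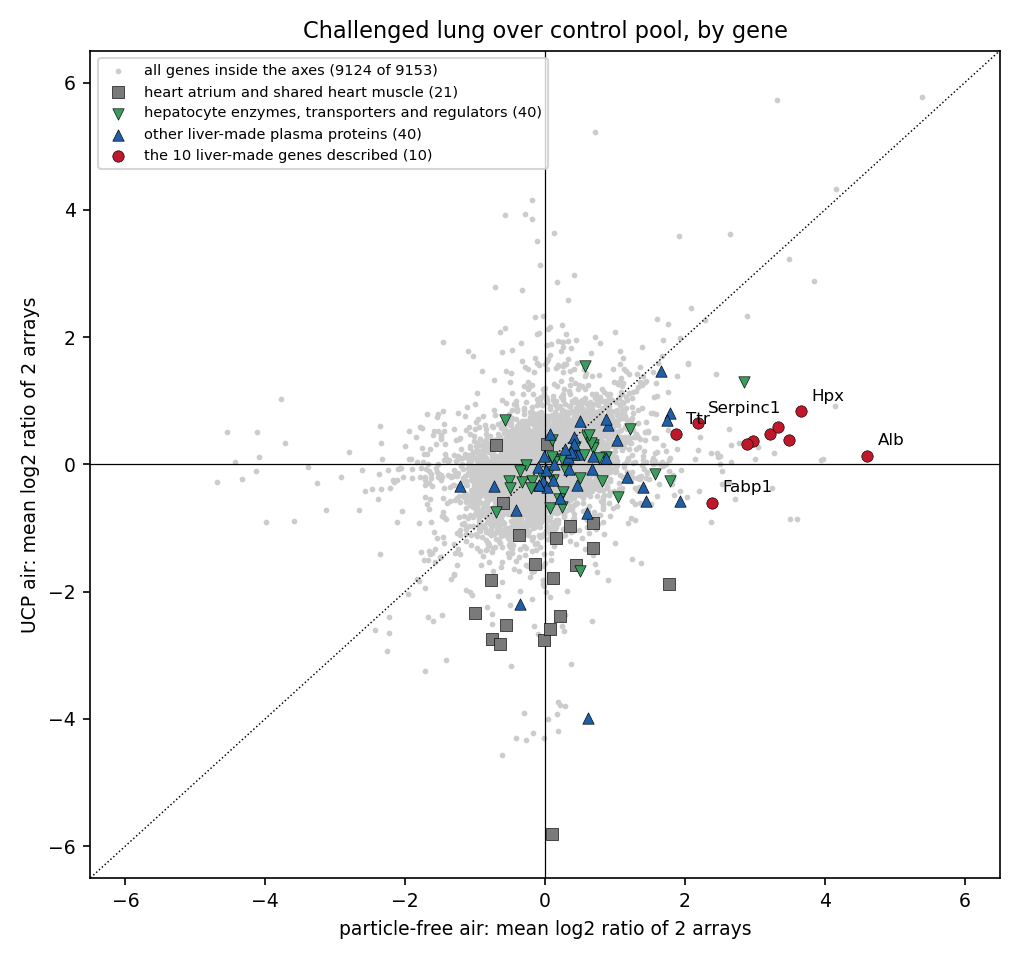
Mean log2 ratio of the 2 arrays of particle-free air (horizontal axis) against that of UCP air (vertical axis) for each gene (light dots; the few beyond the axes are not drawn), probes of a gene averaged; the dotted line marks equal ratios, blue and green triangles the other plasma protein and hepatocyte lists. The 10 liver-made genes (red) lie far right and near the horizontal line at 0, from 1.87 (Ttr, both probes averaged) to 4.61 (Alb), while most heart muscle genes (grey squares) lie below it, with a median of -1.78.

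Other proteins that the liver secretes were looked at for the same pattern. This list, and the hepatocyte and acute phase lists below, were chosen with earlier results of these data known. Their counts beside the background are therefore a description. Of 85 such genes listed, 40 were measured, and their median, with the probes of a gene averaged, was 0.41 in particle-free air against -0.05 in UCP air. All 9153 genes had medians of -0.02 and 0.002. In particle-free air 8 of 40 (20.0%) were at least 1.5-fold higher on both arrays, beside 3.73% of all genes, and 0 were lower, beside 3.58%. In UCP air 3 of 40 (7.5%) were higher, beside 2.93%, and 2 lower, beside 3.82%. Limma called 0 of the 40 in either air and 0 for the difference; over all genes it called 0.0109% higher in particle-free air, and 0.0109% higher and 0.0109% lower in UCP air. At an unadjusted p under 0.05, 12 of the 40 were higher and 0 lower in particle-free air, beside 5.58% and 5.7% of all genes. In UCP air these counts were 4 and 2, beside 4.45% and 4.93%, and for UCP minus particle-free air 0 and 8, beside 1.79% and 2.15%.

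The 8 were Apof, F7, F10, F2, Ambp, Rbp4, Serpina10 and Cfi. Apof, an apolipoprotein, lay at 2.34 and 1.52 in particle-free air and at -0.19 and -0.96 in UCP air. F2, prothrombin, lay at 1.60 and 1.29, then at 0.14 and -1.28. Ambp, the precursor of bikunin, lay at 1.80 and 0.99, then at -0.36 and -0.34, and Rbp4, the retinol carrier that travels with transthyretin, at 1.06 and 1.28, then at -0.51 and 0.11. These 4 followed the order of the airs seen in the 10 genes, at smaller ratios.

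The clotting factors F7 and F10 were less uneven. F7 lay at 1.47 and 2.02 in particle-free air and at 0.52 and 0.86 in UCP air. F10 lay at 1.43 and 1.88, then at 1.08 and 1.85, so that the airs overlapped. Cfi, the complement inhibitor factor I, lay at 0.76 and 0.99, then at 0.64 and 0.77, and Serpina10, an inhibitor of activated factor X, at 0.84 and 0.89, then at 0.21 and 0.00. Of the whole list, 8 of 40 lay at least 1.5-fold higher in particle-free air than in UCP air on every pairing of arrays, beside 2.01% of all genes, and 0 of 40 the other way, beside 1.72%.

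Some major plasma protein genes had values unlike those of the 10. Apoa2, the second apolipoprotein of high density lipoprotein, lay at 3.41 and 0.16 in particle-free air, and Apoa1, the first, at 2.71 and -0.92, so their arrays disagreed. The next ones kept the order of the airs, without overlap, but at low ratios in particle-free air. Itih2, a heavy chain that is joined to bikunin, lay at -0.05 and -0.66 in particle-free air and at -1.99 and -2.39 in UCP air. Hp, haptoglobin, which binds free hemoglobin, lay at 0.49 and 0.33, then at -0.32 and -0.28. Apoa1, Itih2 and Hp were chosen after their values were seen.

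Enzymes, transporters and regulators that stay inside hepatocytes were taken as a marker list for that cell. Of 99 listed genes, 40 were measured, with medians of 0.25 in particle-free air against -0.10 in UCP air. In particle-free air 7 of 40 (17.5%) were at least 1.5-fold higher on both arrays, beside 3.73% of all genes, and 0 were lower; in UCP air 2 of 40 (5.0%) were higher, beside 2.93%, and 3 of 40 (Hgd, Gnmt and Aspg) lower, beside 3.82%. Both arrays lay above 0 for 20 of the 40 in particle-free air, beside 26.2% of all genes. In UCP air they did so for 12 of the 40, near the 30.4% of all genes. Single genes of the list had means from -0.71 to 2.84, then from -1.67 to 1.55. The 1.55 is a mean of arrays that disagreed, at -1.72 and 4.82. Limma called 0 of the 40 genes in either air and 0 for the difference. At an unadjusted p under 0.05, 9 were higher and 2 lower in particle-free air, beside 5.58% and 5.7% of all genes, the lower count being near its background. In UCP air 1 was higher and 3 lower, beside 4.45% and 4.93%, and for UCP minus particle-free air the counts were 0 and 6, beside 1.79% and 2.15%. The part that RNA of hepatocytes has in the ratios of the 10 genes was not tested.

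The 7 were Cyp3a11, Slc27a2, Mat1a, Cyp7b1, Hpd, Cyp2d10 and Cyp2d26. Cyp3a11, a drug-metabolising cytochrome P450, lay at 2.45 and 3.24 in particle-free air and at 1.04 and 1.56 in UCP air. Mat1a, the liver form of the enzyme that makes S-adenosylmethionine, lay at 1.76 and 1.38, then at 0.19 and -0.48. Slc27a2, a fatty acid transporter, lay at 0.83 and 2.74, then at -1.38 and 0.86. Cyp7b1, an oxysterol hydroxylase, lay at 0.86 and 1.58, then at 0.74 and 0.38, and Hpd, an enzyme of tyrosine breakdown, at 1.01 and 0.73, then at 0.37 and -0.15. Tat, another enzyme of tyrosine breakdown, lay at 0.42 and 1.66, then at -0.09 and -0.93. Cps1, the first enzyme of the urea cycle, lay close to 0 on all arrays (0.42, 0.06, 0.22 and -0.05), as did the regulator Hnf4a on average (0.10 and 0.12 in the airs); both were chosen after their values were seen.

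Plasma proteins of the acute phase, which inflammation raises in liver and some of which inflamed lung makes itself, had medians of 0.87 (particle-free) and 0.23 (UCP) over the 16 measured of 26 listed genes. In particle-free air 7 of 16 (43.8%) were at least 1.5-fold higher on both arrays, beside 3.73%, and in UCP air 3 of 16 (18.8%), beside 2.93%. In UCP air 1 of 16 (Orm1) was at least 1.5-fold lower, beside 3.82%. Limma called 0 of the 16 in either air and 0 for the difference. At an unadjusted p under 0.05, 7 were higher and 0 lower in particle-free air, beside 5.58% and 5.7% of all genes. In UCP air 2 were higher and 1 lower, beside 4.45% and 4.93%, and for the difference 0 and 5, beside 1.79% and 2.15%. Cfb, a complement factor, and Hamp, the iron hormone hepcidin, were among the 7 at least 1.5-fold higher, at means of 1.24 and 0.87. Saa1, the serum amyloid of liver, lay at 3.02 and 2.31 in particle-free air and at 0.29 and -0.21 in UCP air. Fgb, a fibrinogen chain, lay at 3.67 and 3.52, then at 1.27 and -2.99, so its UCP arrays did not agree. Saa3, by contrast, lay high in both airs (3.77 and 3.93, then 3.13 and 2.63), as did Lcn2 (2.12 and 1.66, then 0.96 and 1.81). Orm1, an acid glycoprotein, lay at 0.65 and 0.92, then at -0.74 and -0.85.

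**Figure D3:**
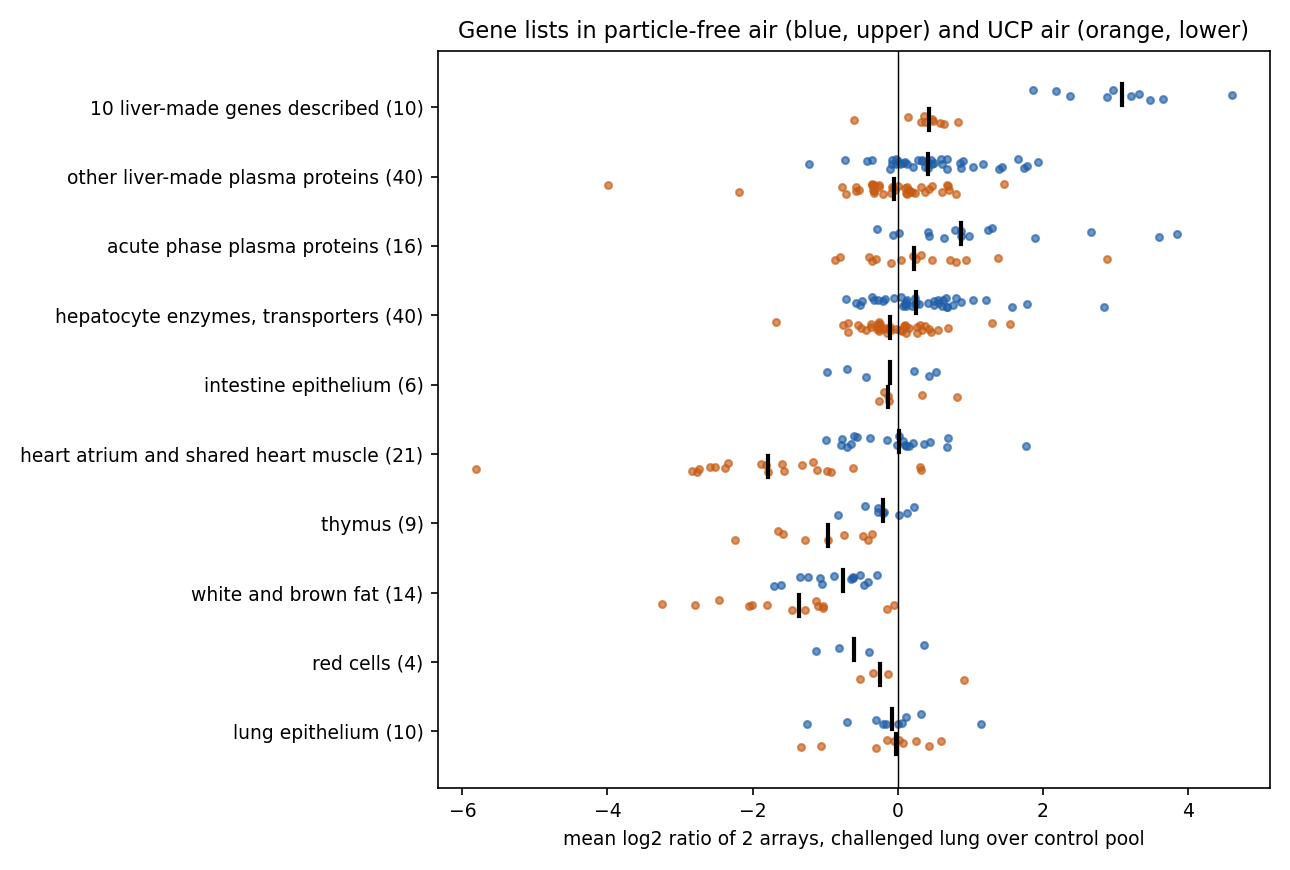
Mean log2 ratio of the 2 arrays (horizontal axis) for each gene of 10 lists (rows, number of measured genes in brackets), particle-free air in blue above UCP air in orange; black bars are medians. The 10 liver-made genes have medians of 3.09 and 0.43. The medians of the other plasma protein, acute phase and hepatocyte lists lie to the right of 0 in particle-free air, from 0.25 to 0.87. The medians of heart, thymus and fat genes lie to the left of 0 in UCP air, at -1.78, -0.96 and -1.36.

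Other tissues that use some of these genes were looked at by their own markers. Of the intestinal epithelium list, where Fabp1 is abundant too, 6 of 22 genes were measured, with medians of -0.11 and -0.13 and 0 of 6 at least 1.5-fold higher on both arrays of particle-free air, beside 3.73% of all genes. In UCP air 1 of 6 was higher (Slc5a1, a glucose transporter, at 0.61 and 1.02), beside 2.93%; it was named after its values were seen. Cdx1, Guca2b, Mep1a and Lgals4 lay at means of -0.98, -0.70, 0.53 and -0.44 in particle-free air. Of the list for choroid plexus and pancreatic islet, where Ttr is abundant, 4 of 13 were measured (Sst, Pcsk1n, Chga and Folr1), with medians of -0.30 and -0.10 and 0 of 4 higher in either air. With so few genes measured, counts of 0 lie near the background and say nothing about these tissues. Red cell genes, taken as markers of blood, had medians of -0.60 and -0.24 over 4 genes, with Slc4a1, Hba-a1 and Alas2 at -1.13, -0.80 and -0.39 in particle-free air and Car2 at 0.36. The arrays hold ratios only, so the lung label could not be checked by level; 10 genes of lung epithelium had medians of -0.07 and -0.02, with Cyp2f2, Sftpb, Scgb3a1 and Pdpn at -1.24, -0.70, 0.31 and 1.15 in particle-free air.

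Markers of organs next to the lung also differed in value between the airs. Their lists, too, were chosen with earlier results of these data known. Their counts beside the background, and the limma call among them, are therefore a description. Heart muscle genes had medians of 0.02 and -1.78 in these airs over 21 genes, with 18 of 21 at least 1.5-fold lower on both UCP arrays, beside 3.82% of all genes. Limma called 1 of them by gene, Nppa, the atrial natriuretic peptide, at -5.72 and -5.91 (limma adjusted p = 0.0282). Myl2 lay at 1.76 and -1.88 in the airs, Cox8b at -0.99 and -2.34, Myh7 at -0.78 and -1.81, and Myl4 at -0.76 and -2.74. On every pairing of arrays, 17 of 21 heart genes lay at least 1.5-fold higher in particle-free air than in UCP air, beside 2.01%. The other way it was 1 of 21, beside 1.72%. Thymus genes had medians of -0.21 and -0.96 over 9 genes, with 5 of 9 at least 1.5-fold lower on both UCP arrays, beside 3.82%. Prss16, Dntt, Cd8a and Arpp21 lay at -2.25, -1.64, -1.58 and -0.74 in UCP air. Fat genes had medians of -0.76 and -1.36 over 14 genes, with 8 of 14 at least 1.5-fold lower in particle-free air, beside 3.58%, and 12 of 14 in UCP air, beside 3.82%. Gpd1, Car3, Agpat2 and Plin1 lay at -1.71, -1.60, -1.35 and -1.24 in particle-free air, then at -3.25, -2.46, -1.81 and -0.14. The 10 liver-made genes stood high in particle-free air, while most heart and thymus genes stood low in UCP air and most fat genes in both airs. Whether these patterns share a source was not tested.

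Genes with the most similar values were sought by the distance of their 4 log2 ratios to the median profile of the 10 genes (3.51, 2.93, 0.48 and 0.49), over the 9143 other named genes. The 10 themselves lay from 0.092 (Serpina1b) to 2.24 (Alb) away. The nearest others were Saa1 at 1.07, Rab3d, a small GTPase of secretory vesicles, at 1.21, Cyp3a11 at 1.64, Serpini1, the neuronal serpin, at 1.71 and D430041D05Rik at 1.72. Dmrtb1, F7, Chil1, Rnd1 and Lgals3 followed at 2.21 to 2.29. Saa1, Cyp3a11 and F7 among these were also on the acute phase, hepatocyte and other plasma protein lists. Those lists hold 16 acute phase, 40 hepatocyte and 40 other plasma protein genes of the 9143. The rest were on none of them, and Chil1 and Lgals3 lay high in UCP air too (means 1.58 and 1.59). This ranking over 4 arrays is a description of likeness only.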

How the data were processed

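Each of 4 dual-colour arrays held challenged lung RNA and the pooled control RNA of the same air. What the authors deposited is 1 log2 ratio per probe and array. Scanner, image software and normalization were not given in the sources used here, and without brightness no filter on dim probes was possible. Scale and direction were read from the values: each array tops out at a ratio of 100000 plus 1 array constant, with opposite sign under the opposite dye orientation, and with the constant removed all ratios under 0.3 were whole steps of 0.001 (tolerance 0.0011 on the log2 scale). Array medians were -0.01, -0.07, -0.02 and 0.02.

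Of 20205 probes, 13852 had 1 gene symbol, 0 several and 6353 none; 13849 matched the gene table. Probes with values on all 4 arrays (18160, for 9153 named genes) went into limma 3.58.1 (run in R 4.3.3) with a mean per air, tested two-sided with Benjamini-Hochberg adjustment at 0.05, and checked on simulated data. Probes of a gene were averaged for lists. Counts at least 1.5-fold on both arrays used no model. The arrays' number limits the precision.

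The members and lists were chosen with earlier results of these data known. Named genes were all members, up to 6 genes by size of ratio in particle-free air from each of the other liver-made plasma protein and hepatocyte lists and up to 4 from each other list, and the 10 nearest in profile; genes outside this rule that complete a count, and Cps1, Hnf4a, Apoa1, Itih2, Hp and Slc5a1, were chosen after their values were seen. Alternatives covered centring, scale, dye orientation as a block, averaging, missing values, named probes, robust eBayes, fold and each array left out.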

Additional observations from a re-analysis of the deposited data

Results flagged for a closer look

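Several genes lay on one side of 0 on both arrays of particle-free air and on the other side on both arrays of UCP air. Fabp1 did so with a difference, UCP minus particle-free air, of -2.99; this difference was not tested, since it entered the choice of the gene. Among other genes named by rule or to complete a count, the differences were -2.51 for Apof, -1.74 for Ambp, -1.58 for Orm1, -1.55 for Tat, 1.31 for Cdx1, -3.65 for Myl2 and -2.53 for Dmrtb1, each from 2 arrays an air. Limma's test of the difference, fitted by gene, called none of these 7, with adjusted p from 0.379 (Myl2) to 0.979 (Ambp, Tat and Cdx1), and at an unadjusted p under 0.05 it held 164 higher and 197 lower of 9153 genes.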

How the results depend on the processing

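In particle-free air 10 member probes stayed at least 1.5-fold higher, and 10 lay clear above UCP air. This held with arrays centred, centred and scaled, probes averaged by gene, named probes only and a 2-fold threshold. The genes were chosen for being high in particle-free air and lower in UCP air, so that these counts stayed is no test. Of all 18160 probes, 783 with arrays centred and 653 with scaling were at least 1.5-fold higher on both arrays in particle-free air. At the 2-fold threshold 190 were higher there. The median of the member probes there ran from 2.99 to 3.51 with either array left out. In UCP air the member median of 0.38 was 0.44 with arrays centred and scaled, 0.43 by gene, and 0.44 to 0.51 with an array left out; the count at least 1.5-fold higher was 2 with scaling and 0 by gene. The difference between the airs was -2.43 with scaling and -2.99 to -2.62 with an array left out. Alb in UCP air lay at -0.53 without array 2 and at 0.81 without array 1. Averaged with probe 1, Ttr probe 2 turned from below 0 to 1.87 and 0.48. The UCP medians of the other plasma protein and hepatocyte lists, -0.05 and -0.10, were 0.019 to 0.055 and -0.003 to 0.067 with an array left out. Causes were not tested.

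With probes averaged by gene, 341 genes were at least 1.5-fold higher and 328 lower in particle-free air, and under UCP 268 and 350; at 2-fold the probe counts were 190, 228, 164 and 285. At 2-fold, 5 of 40 other plasma protein, 2 of 40 hepatocyte and 4 of 16 acute phase genes stayed in the count for particle-free air. In UCP air 1 of each list did. The share of all genes at 2-fold was not counted, so these counts have no background beside them and nothing is read from them. Centring turned the balance of higher and lower probes in particle-free air, from 668 and 839 to 783 and 746. With probes averaged limma called 1 gene in particle-free air, 2 in UCP air, and 1 probe in UCP air among named probes. With an array left out it called 0 to 24 probes in particle-free air (24 without its array 1, 8 without its array 2). The range was 0 to 36 in UCP air (36 without its array 1, 4 without its array 2) and 0 to 32 for the difference, a lone array being assumed to vary like the others. The counts on both arrays could not be made with an array left out.

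Array numbers stand for dye orientation. The deviations of array 1 from the mean of its air had r = 0.0536 between the 2 airs over probes. Capped probes stayed in this r, so a dye effect shared by the other probes was not tested by it. With orientation as a replicate block limma called 0 probes in each comparison (smallest adjusted p 0.502, 0.503 and 0.96), and the member medians of 3.21, 0.38 and -2.73 were unchanged by construction.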
